A study of Mus musculus with 11 samples.

Results

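The 3 wild-type libraries of the series, those whose sample title starts with WT, hold the RNA of CD11b-positive myeloid cells from irradiated tumours. They are 3 of 11 samples and were chosen by that label alone, so no measured value entered the choice. The host mice were wild type on a C57BL/6 background, and their tumours had been implanted subcutaneously, irradiated locally with 15 Gy and taken 4 days later. The cells were enriched with antibodies to CD11b and magnetic beads, without culture, and their total RNA was sequenced. The sources used here name neither the tumour line nor the age and sex of the mice, nor how many mice stand behind each library. All 3 libraries came from irradiated tumours, so their levels describe that state and hold no contrast with unirradiated tumours. No test between groups was made. Whether each replicate was a separate animal is not stated, and the spread over the 3 libraries may therefore be technical.

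CD11b, the product of Itgam, is the alpha chain of an integrin carried by monocytes, macrophages, neutrophils and some dendritic cells. Monocytes that enter a tumour from the blood can become macrophages, which take up dead cells and debris, break them down in lysosomes, present peptides on MHC molecules and release chemokines, cytokines and growth factors. Macrophages recycle iron from ingested cells and store it in ferritin, and they sense nucleic acids and microbial products through Toll-like and other receptors. In a bulk preparation, fewer cells of a type and less RNA per cell cannot be told apart.

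Levels are given as RPKM, read numbers divided by transcript length and by the library's mapped reads, which allows comparison between genes of different length. Errors are standard deviations (SD) over the 3 libraries. From the steps between low values of short genes, the depth came to about 30.7 M, 35.6 M and 38.4 M reads in WT replicates 1, 2 and 3, so that 1 RPKM in a gene of 2 kb stood for 61.5 to 76.7 reads. Between 15123 and 15369 of 22068 symbols were above 0 in a library, and 5806 were listed at 0 in all 3. Of all symbols, 46.9% had a mean of at least 1 RPKM (10348 genes), 23.3% of at least 10 RPKM (5145 genes) and 3.00% of at least 100 RPKM (663 genes). Counts of list members given below are to be read beside these shares. Across genes, which are not independent replicates, log2 values of library pairs correlated at Pearson r of 0.991, 0.995 and 0.990 for replicates 1 and 2, 1 and 3, and 2 and 3.

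The labelled cell type was checked first. Itgam itself was at 294, 296 and 313 RPKM, and its partner Itgb2, the beta chain of the same integrin, at 388, 438 and 360 RPKM. The highest library was 1.06-fold above the lowest for Itgam and 1.22-fold for Itgb2. Cd74, the MHC class II invariant chain, had a mean of 6170 ± 1861 RPKM and rank 2 of all genes. Lyz2, the lysozyme of myeloid cells, stood at 2376, 3113 and 1746 RPKM (rank 10). Cd68, a lysosomal glycoprotein of macrophages, was at 969.8, 989.8 and 1119 RPKM (rank 35), and Apoe, a lipid carrier that macrophages secrete, was at 729.6, 721 and 456 RPKM (rank 80). Csf1r, the receptor for the macrophage growth factor CSF1, was at 318, 360.2 and 325 RPKM (rank 174). Replicate 2 was highest for Cd74, Lyz2 and Csf1r, while replicate 3 was lowest for Cd74, Lyz2 and Apoe and highest for Cd68. All 18 macrophage markers had a mean of at least 10 RPKM and 16 of at least 100 RPKM. Their median was 493 RPKM, against 0.603 RPKM over all symbols, and together they held 4.66% ± 0.66 of the summed RPKM.

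Other markers of the CD11b compartment were lower. All 11 inflammatory monocyte markers were above 10 RPKM with a median of 51.8 RPKM, led by Fn1 (fibronectin) at 611, 495 and 328 RPKM. Ly6c2, the surface antigen that marks inflammatory monocytes, was at 104, 247 and 252 RPKM, so replicate 1 stood below the other two. Of 13 dendritic cell markers, 8 reached 1 RPKM and 5 reached 10 RPKM. The highest of them, Bst2 and Itgax (CD11c), are shared with macrophages. Ccl22 (50.2 RPKM), Batf3 (11.4 RPKM), a factor of conventional dendritic cells, and Ccr7 (11.3 RPKM), a receptor of migrating dendritic cells, followed, and the factor Zbtb46 had a mean of 1.58 RPKM. The growth factor receptor Flt3 (0.21 RPKM) and the subset markers Xcr1 (0.12 RPKM) and Siglech (0.04 RPKM) had means below 1 RPKM. Of 19 neutrophil markers, 11 reached 1 RPKM and 0 reached 100 RPKM. Mmp8, a collagenase of neutrophil granules, led them at 53.8, 27.1 and 110 RPKM, and S100a9, a calcium-binding protein abundant in neutrophils, was at 9.31, 2.07 and 13.8 RPKM. The neutrophil antigen gene Ly6g was not analysed here. The granule genes Elane (0.03 RPKM), Mpo (0.09 RPKM) and Camp (0.09 RPKM) had means below 1 RPKM. Of 17 eosinophil, basophil and mast cell markers, 3 reached 1 RPKM, and Ear2, an eosinophil-associated ribonuclease that monocytes also express, accounted for most of their sum.

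**Figure D1:**
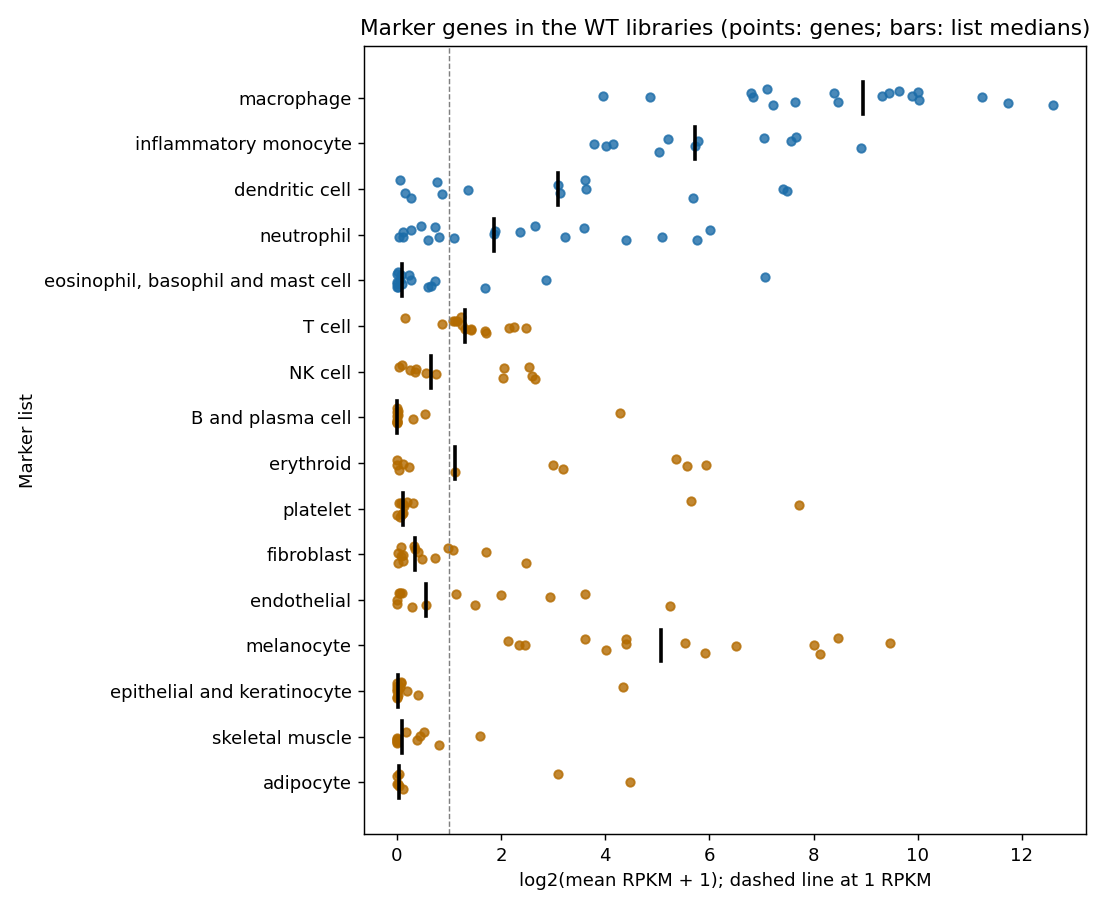
Marker genes by cell type in the WT libraries. Each point is a gene at log2(mean RPKM + 1) over the 3 libraries. Markers of myeloid cell types are in blue and those of other cell types in orange, and black bars are list medians. The macrophage median of 493 RPKM lies farthest to the right and the melanocyte median of 32.6 RPKM is the highest among the other cell types.

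The most abundant RNAs encoded iron storage, antigen presentation, lysosome and cytoskeleton proteins. The 10 highest genes held 10.4% ± 0.22 of the summed RPKM, the 100 highest 31.6% ± 0.44 and the 1000 highest 67.3% ± 0.31. The ferritin light chain gene Ftl1 was at 6778, 5357 and 7897 RPKM (rank 1), and the heavy chain gene Fth1 at 6134, 4134 and 7605 RPKM (rank 3). Both ferritin genes were highest in replicate 3 and lowest in replicate 2. Ftl2, a near-identical copy of Ftl1, was at rank 9, and how the authors divided the reads that both share is not given, so neither level is certain. Psap, the precursor of the lysosomal saposins, followed at 5262, 5240 and 5092 RPKM (rank 4), a range of 1.03-fold. Ctsd (cathepsin D) had a mean of 3418 ± 729.9 RPKM, Ctss (cathepsin S) of 1436 ± 367 RPKM and Ctsb (cathepsin B) of 1396 ± 77.8 RPKM. The actins Actb and Actg1, at means of 3181 RPKM and 2939 RPKM, and Vim (vimentin), Tmsb4x (an actin-binding thymosin), Cfl1 (cofilin) and Pfn1 (profilin) stood for the cytoskeleton among the 30 highest genes. The remaining places included 4 glycolysis genes, Pkm2, Aldoa, Tpi1 and Ldha, with Gm5506, a copy of the enolase gene Eno1 that may share its reads. They also included the translation genes Eef1a1, Eef2 and Rplp1, Lgals3 (a galactose-binding lectin) and Laptm5 (a lysosomal membrane protein of blood cells). A secreted ligand, the chemokine Ccl6, took rank 11. Of the 100 genes highest by mean, 95, 91 and 94 were also among the 100 highest of replicates 1, 2 and 3, and 15 were ribosomal protein genes.

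**Figure D2:**
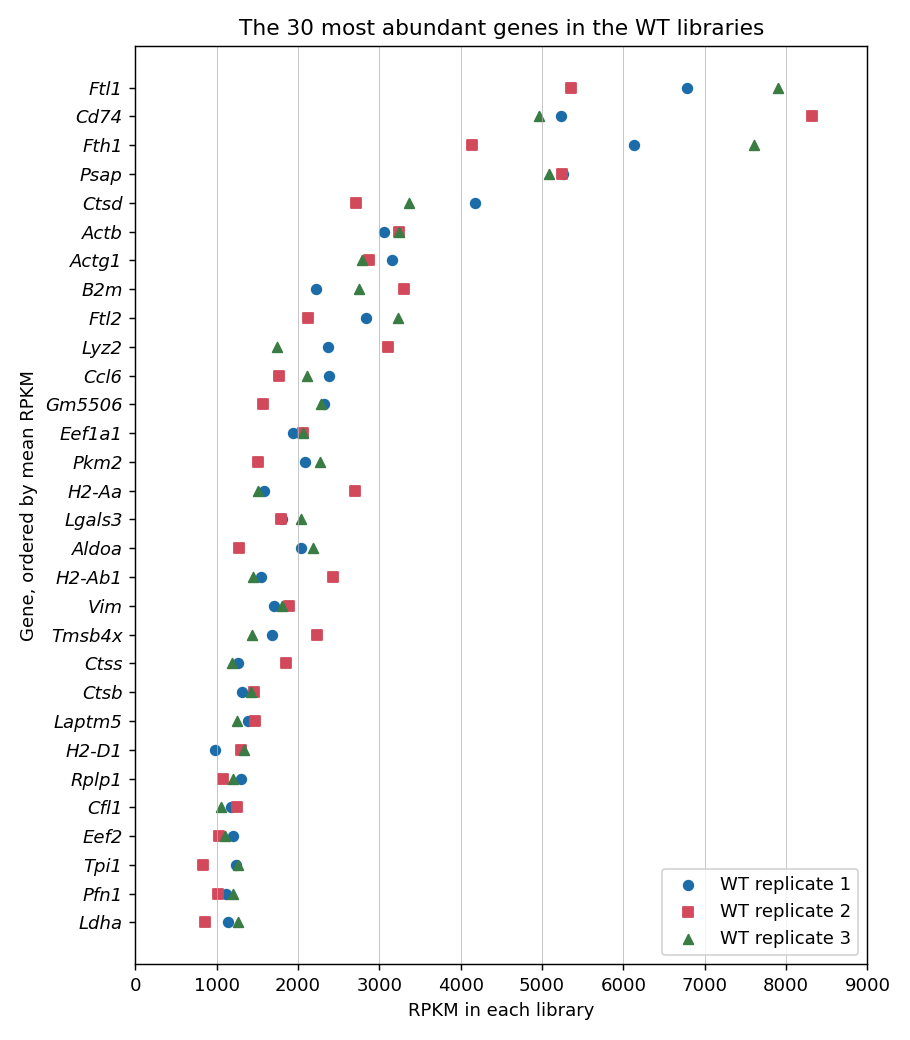
RPKM of the 30 most abundant genes in each WT library, ordered by mean. Replicate 2 (red squares) lies to the right for Cd74, B2m, H2-Aa and H2-Ab1 and to the left for Ftl1, Fth1, Ctsd and Aldoa, while Psap and Actb vary little.

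Among the lists of secreted ligands, CC chemokines had the highest summed RPKM, at 4504 ± 501, followed by growth factors at 3141 ± 350. Ccl6 alone had a mean of 2089 RPKM. The growth factor Grn (1061 RPKM) was above Ccl2 (641 RPKM), the next CC chemokine. CC chemokines are small proteins that draw monocytes, T cells and other leukocytes to a tissue. Of 20 CC chemokines, 12 had a mean of at least 1 RPKM, 11 of at least 10 RPKM and 9 of at least 100 RPKM, and 4 were listed at 0. Ccl6, a myeloid chemokine, was at 2385, 1767 and 2116 RPKM. Ccl2, the main chemoattractant of CCR2-positive monocytes, was at 559.6, 509.9 and 855 RPKM (rank 78), and its relative Ccl7 at 324, 331 and 584 RPKM (rank 134). Both were highest in replicate 3, with replicates 1 and 2 close together. Ccl3 (mean 323 ± 69.0 RPKM) and Ccl4 (203 ± 37.0 RPKM), inflammatory chemokines of activated macrophages, and Ccl9 (314 ± 51.1 RPKM), a ligand of CCR1, came next. Ccl8, a relative of Ccl2, was at 132, 246 and 174 RPKM. Ccl17, a ligand of CCR4 on T cells, was at 158, 214 and 74.4 RPKM, lowest in replicate 3, as was Ccl22, the other CCR4 ligand, at 58.5, 68.5 and 23.5 RPKM. Ccl5, made by T cells, NK cells and activated macrophages, had a mean of 21.8 ± 1.57 RPKM.

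CXC chemokines, several of which draw neutrophils, were fewer. Of the 16 members of the list of CXC and other chemokines, 8 reached 10 RPKM and 2 reached 100 RPKM. Cxcl2, a neutrophil chemoattractant, was at 304, 383 and 456 RPKM (rank 146). Its relatives were lower, with Cxcl3 at 91.4, 22.4 and 158 RPKM and Cxcl1 at 36.5, 17.8 and 54.1 RPKM. For Cxcl1 and Cxcl3 the order of the libraries was the same, replicate 2 lowest and replicate 3 highest, whereas Cxcl2 was lowest in replicate 1. Pf4, a chemokine of platelets that macrophages also express, was at 202, 109 and 322 RPKM, and Ppbp, another platelet chemokine, at 38.0, 5.96 and 102 RPKM. The remaining platelet markers, among them Itga2b, Gp9, Gp1ba, Gp5 and Gp6, had means below 1 RPKM. Cxcl10 and Cxcl9, which interferon induces and which draw T cells, were at 36.4, 80.1 and 68.4 RPKM and at 8.13, 20.2 and 12.1 RPKM, both lowest in replicate 1. Cxcl16, a membrane-bound chemokine and scavenger receptor, had a mean of 53.9 ± 13.1 RPKM.

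The 250 bases before the start of Cxcl1 and Cxcl2 are shown because both chemokines share a kappaB site, the sequence bound by NF-kappaB factors. The letters searched on both strands, after the levels had been seen, were GGGANTTTC, where N is any base, and matches are in capitals. They begin 71 bases before the start of Cxcl1 and 97 bases before that of Cxcl2. Sequences here and below are from RefSeq, build GRCm38.p6, which is not the build named for the deposited values, and run 5′ to 3′ on the gene's strand.
Cxcl1, chr5:90890995-90891244, plus strand: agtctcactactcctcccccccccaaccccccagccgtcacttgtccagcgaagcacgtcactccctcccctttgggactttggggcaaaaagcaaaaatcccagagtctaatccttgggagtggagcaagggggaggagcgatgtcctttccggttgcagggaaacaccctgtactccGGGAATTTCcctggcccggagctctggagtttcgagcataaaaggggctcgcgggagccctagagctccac
Cxcl2, chr5:90903649-90903898, plus strand: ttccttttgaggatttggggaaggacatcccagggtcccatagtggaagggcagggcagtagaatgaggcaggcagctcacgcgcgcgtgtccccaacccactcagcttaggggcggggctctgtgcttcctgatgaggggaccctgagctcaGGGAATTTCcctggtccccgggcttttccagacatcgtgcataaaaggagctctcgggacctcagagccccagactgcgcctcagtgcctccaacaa
Of 13 CXC and other chemokines with a RefSeq promoter window (250 bases before to 50 after the start), 4 held the letters (30.8%), Cxcl1, Cxcl2, Cxcl3 and Cxcl9, against 1.29% of 27025 genes. A match of letters is a description and not evidence of binding.

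Interleukins were led by 2 genes. Il1b, which encodes the inflammatory cytokine IL-1 beta, was at 142, 236 and 258 RPKM (rank 293), and Il1rn, which encodes the antagonist of the IL-1 receptor, was at 152, 149 and 238 RPKM (rank 354). Replicate 3 was highest for both, but replicate 2 lay near it for Il1b and near replicate 1 for Il1rn. Of 32 interleukin genes, 10 reached 1 RPKM, 4 reached 10 RPKM and 11 were listed at 0, and the median was 0.025 RPKM. Ebi3, a subunit of IL-27 and IL-35, had a mean of 16.4 RPKM, Il1a (IL-1 alpha) of 15.4 RPKM, Il18 of 7.75 RPKM, Il6 of 5.37 ± 1.75 RPKM and Il10, an anti-inflammatory cytokine, of 2.85 ± 1.26 RPKM. Il12b (0.24 RPKM) and Il23a (0.68 RPKM), subunits of IL-12 and IL-23, had means below 1 RPKM. The T cell cytokines Il17a, Il5, Il9, Il21 and Il22 were listed at 0.

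Of 17 TNF family ligands, 8 reached 1 RPKM and 5 reached 10 RPKM, near the 46.9% and 23.3% of all symbols. Tnf, the founding member, was at 37.5, 31.6 and 45.9 RPKM, and Tnfsf12 (TWEAK) at 32.6, 40.3 and 38.5 RPKM. Their ranges overlap, so the order of these 2 means was not separated by the spread. Interferon genes were near 0. Of 9, 5 were listed at 0, and their summed RPKM was 0.36, 0.85 and 1.28. Ifnb1 (interferon beta) was at 0.04, 0.36 and 0.44 RPKM and Ifng (interferon gamma) at 0.32, 0.44 and 0.78 RPKM, both lowest in replicate 1.

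Of 38 growth factors, 24 reached 1 RPKM and 5 reached 100 RPKM. Grn, the precursor of the lysosomal protein progranulin, was highest at 1061 ± 53.3 RPKM (rank 31). Mif, the macrophage migration inhibitory factor, was at 756, 474 and 768 RPKM, and Spp1, the matrix protein osteopontin, was at 705, 356 and 683 RPKM. Both were lowest in replicate 2. Tgfb1 (transforming growth factor beta 1) was at 337, 309 and 329 RPKM, and Osm (oncostatin M, a cytokine of the IL-6 family) at 222, 207 and 222 RPKM, both with narrow spreads. The angiogenic factors Vegfa (48.5 ± 14.3 RPKM) and Pgf (34.8 ± 9.90 RPKM) and the ligand Gas6 (42.8 ± 14.8 RPKM) of TAM receptors followed, with overlapping ranges. Csf1, the ligand of Csf1r, had a mean of 23.8 ± 9.03 RPKM, while Csf2 (GM-CSF, 0.50 RPKM) and Csf3 (G-CSF, 0.18 RPKM) had means below 1 RPKM.

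Receptors for growth and differentiation signals of myeloid cells were abundant. Of 47 cytokine receptor genes, 40 reached 1 RPKM, 29 reached 10 RPKM and 7 reached 100 RPKM. Below Csf1r, the common beta chain Csf2rb of the GM-CSF receptor had a mean of 147 ± 11.3 RPKM, Il4ra (the IL-4 and IL-13 receptor chain) of 141 ± 19.6 RPKM, Tnfrsf1b (TNF receptor 2) of 125.5 ± 19.7 RPKM, Csf2ra of 122 ± 21.6 RPKM and Tnfrsf1a (TNF receptor 1) of 116 ± 6.03 RPKM. Each of these 5 genes overlapped in range with the next in this order, so neighbours were not separated by the spread. The decoy receptor Il1r2 was at 58.9, 49.2 and 51.7 RPKM, while the signalling receptor Il1r1 of the same ligands was at 0.20, 0.28 and 0.22 RPKM. Il10ra and Il10rb, the chains of the IL-10 receptor, had means of 61.5 ± 9.94 RPKM and 71.0 ± 6.95 RPKM. Of 20 chemokine receptors, 10 reached 1 RPKM, near the 46.9% of all symbols. The atypical receptor Ccrl2 had a mean of 125 ± 26.2 RPKM. Ccr2, which brings monocytes out of the marrow, was at 41.7, 77.0 and 36.8 RPKM, and Ccr1 at 46.4, 51.0 and 58.1 RPKM. Cx3cr1 (1.18 ± 0.558 RPKM), high in resident macrophages and patrolling monocytes, and Cxcr2 (1.14 ± 0.601 RPKM), the receptor of neutrophils for Cxcl2, were near 1 RPKM.

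Setting ligands beside their receptors, in 26 pairs, gave levels that differed between partners in several ways. In some pairs both partners were at 10 RPKM or more, as for Csf1 and Csf1r, Ccl2 and Ccr2, Ccl3 and Ccr1, Tnf and Tnfrsf1b, Tgfb1 and Tgfbr2 (35.6 ± 3.98 RPKM), and Gas6 and the TAM receptor Axl (127 ± 22.5 RPKM). In others the ligand was above 100 RPKM and the receptor below 2 RPKM, as for Osm and Osmr (0.47 ± 0.232 RPKM), Ccl17 and Ccr4 (0.10 ± 0.104 RPKM), and Cxcl2 and Cxcr2. In further pairs the receptor was above 20 RPKM and the ligand below 1 RPKM, as for Il4ra and Il4 (0.05 ± 0.050 RPKM), Csf2rb and Csf2, Ifngr1 (37.2 ± 7.80 RPKM) and Ifng, Ifnar1 (21.6 ± 3.12 RPKM) and Ifnb1, and Cxcr4 (35.4 ± 9.07 RPKM) and Cxcl12 (0.08 ± 0.060 RPKM). The remaining pairs included Il15 (5.06 ± 1.19 RPKM) and Il15ra (2.83 ± 0.971 RPKM), Cx3cl1 (0.91 ± 0.031 RPKM) and Cx3cr1, and Il6 and Il6ra (18.8 ± 5.33 RPKM). These are RNA levels in the enriched cells, and protein or ligand from other cells was not measured.

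**Figure D3:**
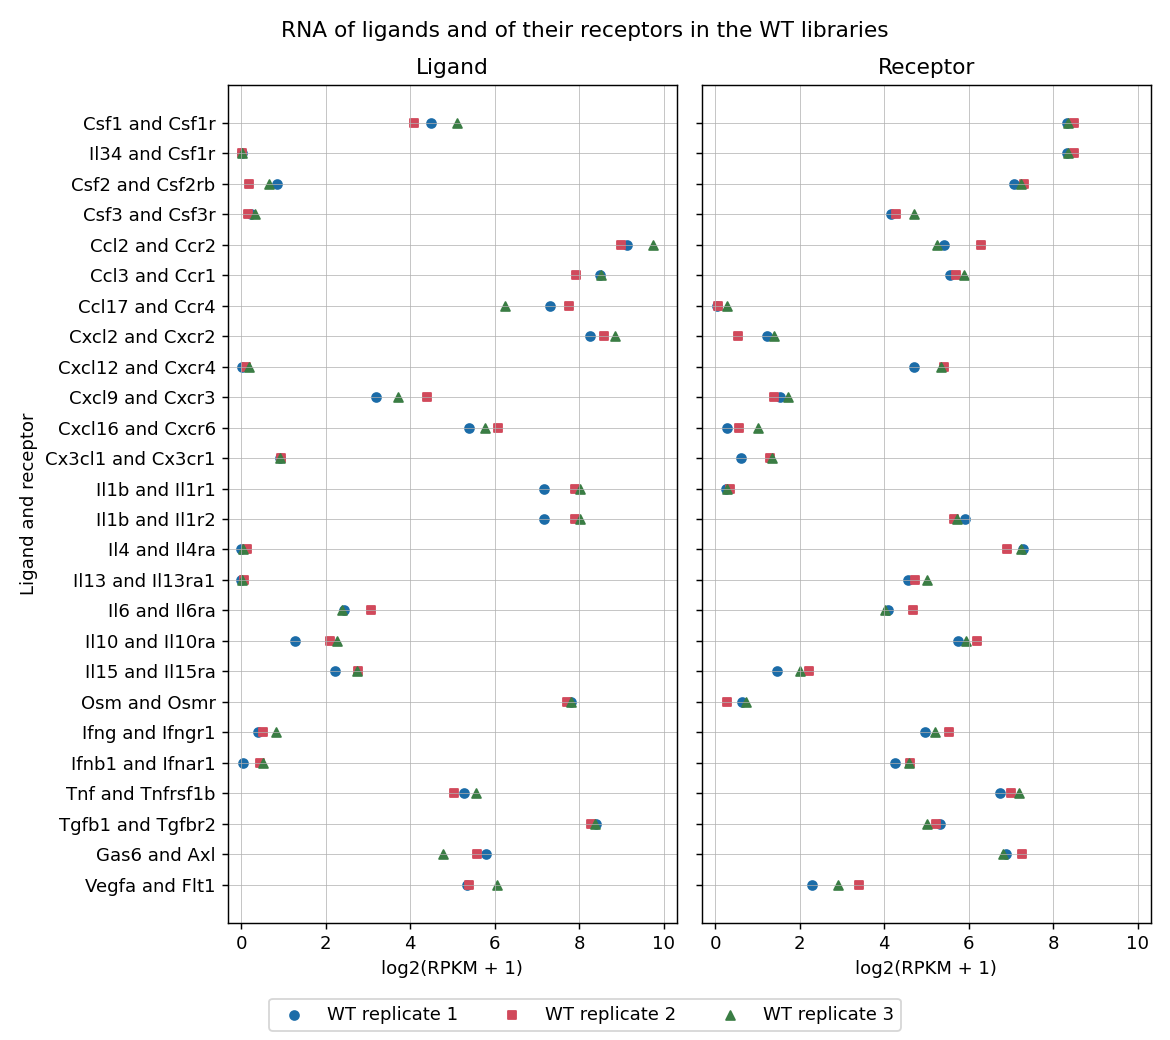
RNA of the ligands (left) and receptors (right) of 26 pairs at log2(RPKM + 1) in each WT library. Ccl17, Cxcl2 and Osm lie far to the right while Ccr4, Cxcr2 and Osmr lie near 0, and the reverse holds for Il4 and Il4ra and for Csf2 and Csf2rb.

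All 26 pattern recognition receptors, which detect microbial and damaged-cell molecules, had a mean of at least 1 RPKM, and 17 of at least 10 RPKM. Cd14, the co-receptor of TLR4, was at 277, 395 and 381 RPKM (rank 163), and the lectin Clec4n (dectin-2) at 286, 267 and 284 RPKM. Clec7a (dectin-1) had a mean of 141 ± 23.4 RPKM, and Tmem173 (STING, the adaptor for cytosolic DNA) of 73.1 ± 8.31 RPKM. Tlr2, for bacterial lipopeptides, had the highest mean of the Toll-like receptors at 66.2 ± 11.6 RPKM, and Tlr13, for bacterial ribosomal RNA, was next at 65.7 ± 8.78 RPKM, with overlapping ranges. Tlr9, the receptor for CpG DNA, was at 20.5, 41.6 and 28.9 RPKM (rank 2220), a range of 2.02-fold. Tlr4, for lipopolysaccharide, had a mean of 26.4 RPKM. In 22 of these 26 genes replicate 1 was the lowest library, against 27.1% of all genes at 1 RPKM or more. Among the 22, Tlr6 was tied between replicates 1 and 2, and the exceptions were Clec4n, Tmem173, Clec4d and Tlr11. The low side of replicate 1 was not particular to this list. Of members at 1 RPKM or more, it was lowest for 16 of 20 checkpoint genes, 25 of 40 cytokine receptors and 45 of 76 transcription factors. It was lowest for only 5 of 24 growth factors and 0 of 26 proliferation genes.

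Fc and complement receptors, which bind antibody-coated and complement-coated particles, were among the highest receptors. Of 18, 14 reached 1 RPKM and 9 reached 100 RPKM. Fcer1g, the signalling chain of Fc receptors, had a mean of 873 ± 55.1 RPKM (rank 48), Fcgr3 (CD16) of 599.6 ± 17.2 RPKM and the inhibitory Fcgr2b of 463 ± 45.7 RPKM. Their ranges did not overlap one another, so this order held in every library. Scavenger and lipid receptors reached 1 RPKM in 17 of 19. Tyrobp, the adaptor DAP12, was at 414, 469.9 and 437 RPKM. Mrc1, the mannose receptor CD206, was at 218, 243 and 139 RPKM, Trem2, a lipid receptor of tumour macrophages, at 110, 105 and 114 RPKM, and the apoptotic-cell receptor Lrp1 had a mean of 194 ± 9.29 RPKM. Mrc1 was lowest in replicate 3, while Trem2 varied little.

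Of 21 checkpoint ligands and inhibitory receptors, 20 reached 1 RPKM and 4 reached 100 RPKM. Sirpa, which binds CD47 and restrains phagocytosis, was highest at 337 ± 16.7 RPKM, followed by the inhibitory receptor Lilrb4 at 227 ± 17.3 RPKM and Lgals9 (galectin-9) at 216 ± 25.0 RPKM. The ranges of Lilrb4 and Lgals9 overlap. Cd274, which encodes PD-L1, was at 75.2, 100.2 and 115 RPKM (rank 693), lowest in replicate 1. Pdcd1lg2 (PD-L2) had a mean of 19.2 ± 4.53 RPKM. The gene of VISTA, listed as 4632428N05Rik, was at 67.5, 72.9 and 78.7 RPKM. The 20 also include receptors known from lymphocytes, Ctla4 (1.63, 3.26 and 6.10 RPKM), Lag3 (1.68, 3.01 and 5.61 RPKM), Pdcd1 (0.72, 2.93 and 4.22 RPKM) and Tigit (0.81, 1.74 and 4.59 RPKM). Each was lowest in replicate 1 and highest in replicate 3, as were most T cell markers below. Which cells carried this RNA was not tested.

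Transcription factor genes were led by factors of the early response to stimuli. Of 82, 76 reached 1 RPKM, 66 reached 10 RPKM and 19 reached 100 RPKM, with a median of 31.1 RPKM. The AP-1 subunits Junb (573 ± 68.2 RPKM, rank 95), Fos (394 ± 63.9 RPKM), Fosb (188 ± 53.5 RPKM) and Jund (174 ± 13.9 RPKM) held 4 of the 8 first places. All 22 immediate early and heat shock genes were above 10 RPKM, among them Hspa8, a constitutive heat shock chaperone, at 879 ± 74.7 RPKM, Zfp36, which destabilises cytokine mRNAs, at 735 ± 62.5 RPKM and the phosphatase Dusp1 at 493 ± 82.9 RPKM. Sfpi1, which encodes the myeloid lineage factor PU.1, was at 235, 279 and 247 RPKM (rank 237). Irf7, the interferon-induced regulator of type I interferon genes, was at 137, 272 and 308 RPKM, with replicate 1 apart on the low side. Other high factors were Bhlhe40 (213 ± 15.0 RPKM), Nr4a1 (176 ± 31.2 RPKM), Irf5 (164 RPKM), Xbp1 (158 ± 4.07 RPKM) and Cebpb (153 RPKM). Stat3, the factor downstream of IL-6 and IL-10 receptors, was at 70.7, 72.5 and 76.1 RPKM (rank 938), a range of 1.08-fold. Stat6, downstream of the IL-4 receptor, had a mean of 84.6 ± 3.52 RPKM and Hif1a, the oxygen-regulated factor, of 52.6 ± 2.56 RPKM. Gata1, Gata2, Gata3 and Gfi1 had means of 0.13 to 0.20 RPKM.

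Effector genes of the lysosome, of antigen presentation and of iron handling held similar mean shares of the RNA, but their order differed between libraries. Antigen presentation genes summed to 22450 RPKM and iron and heme genes to 12337 RPKM in replicate 2. In replicate 3 the sums were 15332 RPKM and 20476 RPKM. Of 23 lysosomal cathepsins and inhibitors, 16 were above 100 RPKM, and they held 4.83% ± 0.22 of the summed RPKM. Antigen presentation genes held 4.37% ± 1.12, with all 19 above 1 RPKM. The class I light chain B2m was at 2221, 3303 and 2746 RPKM, and the class II chains H2-Aa at 1581, 2704 and 1508 RPKM, H2-Ab1 at 1543, 2434 and 1446 RPKM and H2-Eb1 at 793, 1451 and 783 RPKM. The class II genes were higher in replicate 2, with replicates 1 and 3 close together. Class I heavy chains H2-D1 (1203 ± 195 RPKM) and H2-K1 (787 ± 161 RPKM) are near-identical in parts and may share reads. Iron and heme genes held 4.17% ± 1.00. Hmox1, which breaks down heme, was at 1074, 408 and 1363 RPKM, and Slc40a1, the iron exporter ferroportin, was at 7.62, 1.89 and 8.40 RPKM, both lowest in replicate 2.

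Genes linked to alternative and to inflammatory activation of macrophages were present together. Arg1, the arginase of alternatively activated and tumour macrophages, was at 833, 482 and 980.2 RPKM (rank 63), and Nos2, the inducible nitric oxide synthase, which uses the same substrate, at 72.6, 56.5 and 120.4 RPKM (rank 825). Both were lowest in replicate 2 and highest in replicate 3, and Arg1 was above Nos2 in every library. The lectin Mgl2, a marker of alternative activation, was at 288, 429.9 and 164 RPKM. Of 18 alternative activation genes, 17 reached 1 RPKM and 7 reached 100 RPKM. Ido1, which breaks down tryptophan, had a mean of 0.05 RPKM. The NADPH oxidase subunit Cyba was at 974 ± 40.2 RPKM and Cybb at 146 ± 51.7 RPKM. Matrix and protease genes included Tgfbi (609.6 ± 79.2 RPKM), Adam8 (459 ± 109 RPKM), the macrophage elastase Mmp12 (366 ± 100.5 RPKM) and Thbs1 (thrombospondin 1, 271 ± 82.1 RPKM). The p53 target Cdkn1a, which encodes the cell cycle inhibitor p21, was at 453, 501 and 534 RPKM (rank 112), and all 20 p53 targets listed reached 1 RPKM. Proliferation genes all reached 1 RPKM too, but 0 of 26 reached 100 RPKM, with the replication clamp gene Pcna highest at 79.1, 83.9 and 69.4 RPKM.

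RNA of cell types outside the myeloid lists was also measured, and the melanocyte list stood out by level. Whether the cells behind these RNAs carried CD11b was not measured. All 14 of its members reached 1 RPKM and 11 reached 10 RPKM, and their summed RPKM was 2494, 958 and 2147. Gpnmb (913, 461 and 738 RPKM) and Mitf (15.6, 14.4 and 15.2 RPKM) are also expressed by macrophages, but the pigment genes are not typical of myeloid cells. Pmel, which builds the fibrils of melanosomes, was at 486, 127 and 451 RPKM (rank 161). The pigment enzyme genes Tyrp1, Dct and Tyr were at 375, 127 and 336 RPKM, at 363, 115.5 and 289.6 RPKM and at 27.2, 9.16 and 23.9 RPKM. Sox10, a factor of the melanocyte and glial lineages, was at 61.7, 16.9 and 56.9 RPKM. Replicate 2 was lowest for all 14, against 38.3% of genes at 1 RPKM or more. The part of cells that carry these RNAs in the levels of other genes was not tested.

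The M box, TCATGTG, is a sequence bound by the factor MITF. It is shown because the 3 pigment enzyme genes hold it before their starts. It was searched on both strands after the levels had been seen, matches are in capitals, and they begin 22 bases before the start of Tyr, 47 before Tyrp1, and 232 and 151 before Dct.
Tyr, chr7:87493513-87493762, minus strand: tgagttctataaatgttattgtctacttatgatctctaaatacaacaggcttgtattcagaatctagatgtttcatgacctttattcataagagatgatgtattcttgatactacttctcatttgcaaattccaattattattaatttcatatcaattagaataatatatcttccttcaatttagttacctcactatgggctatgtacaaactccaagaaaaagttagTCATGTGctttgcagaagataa
Tyrp1, chr4:80833963-80834212, plus strand: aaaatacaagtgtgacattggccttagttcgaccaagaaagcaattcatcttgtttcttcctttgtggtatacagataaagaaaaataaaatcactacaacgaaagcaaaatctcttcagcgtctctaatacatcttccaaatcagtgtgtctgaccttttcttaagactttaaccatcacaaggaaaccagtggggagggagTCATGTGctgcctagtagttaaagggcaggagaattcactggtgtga
Dct, chr14:118052247-118052496, minus strand: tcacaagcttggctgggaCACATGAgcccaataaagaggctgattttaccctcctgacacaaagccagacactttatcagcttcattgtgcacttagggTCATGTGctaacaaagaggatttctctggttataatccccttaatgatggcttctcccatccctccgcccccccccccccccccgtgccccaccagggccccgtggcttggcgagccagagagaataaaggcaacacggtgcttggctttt
Of 9 melanocyte markers with a promoter window, 5 held the letters (55.6%), against 4.31% of 27025 genes. Here too a match of letters is not evidence of binding.

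The other lists were low. T cell markers reached 1 RPKM in 13 of 15 and 10 RPKM in 0, with sums of 13.4, 25.0 and 46.6 RPKM, and 8 reached 1 RPKM when replicate 3 was left out. Thy1 was at 1.80, 3.62 and 8.39 RPKM, the kinase Lck at 1.21, 2.25 and 6.80 RPKM and the receptor chain Cd3e at 0.75, 1.95 and 4.02 RPKM. NK cell markers, with sums of 9.19, 19.9 and 40.9 RPKM, reached 1 RPKM in 5 of 12, against 46.9% of all symbols. Gzmb, a granzyme, was at 1.76, 4.43 and 9.52 RPKM and Nkg7, a granule protein, at 1.44, 3.82 and 9.85 RPKM, while Ncr1, which defines NK cells, had a mean of 0.28 RPKM. Every T cell and NK cell marker at 1 RPKM or more was lowest in replicate 1, with Cd28 tied with replicate 2. Of these, 12 of 13 and 4 of 5 were highest in replicate 3, against 27.3% of genes at 1 RPKM or more. The mean behind this filter includes replicate 3, and 8 T cell markers passed without it. The count of 12 is therefore partly set by the filter. Among 12 B and plasma cell markers only Sdc1, which other cells also express, reached 1 RPKM, and Cd79a had a mean of 0.24 RPKM. Of 11 erythroid markers 6 reached 1 RPKM, with Hba-a1 at 75.1, 21.7 and 82.5 RPKM, and its near-identical copy Hba-a2 may share its reads. Fibroblast markers summed to 10.2, 9.07 and 14.2 RPKM, with Col1a1 (collagen I) at 1.53, 1.02 and 0.78 RPKM. Endothelial markers summed to 56.4, 49.2 and 79.4 RPKM and reached 1 RPKM in 6 of 13, against 46.9% of all symbols. Eng (36.8 RPKM), Pecam1 (11.2 RPKM) and Flt1 (6.70 RPKM), which macrophages express too, were the highest, followed by Vwf at 3.01 RPKM, and Cdh5, the endothelial cadherin, had a mean of 0.48 RPKM. Epithelial markers, muscle markers and adipocyte markers reached 1 RPKM in 1 of 14, 1 of 12 and 2 of 8, and 2 muscle markers did so when replicate 2 was left out. Krt5, Adipoq and Lep were listed at 0.

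The spread over the 3 libraries was small for most genes. Over the genes whose mean reached 1 RPKM, the coefficient of variation (SD as a percentage of the mean) had a median of 12.7%. By level it was 15.7% from 1 to 10 RPKM, 10.5% from 10 to 100, 10.1% from 100 to 1000 and 16.0% above 1000. The highest and the lowest library were at least 2-fold apart, on RPKM + 1, in 559 of 10348 genes (5.40%), and at least 4-fold apart in 23. In 381 of the 559, replicate 2 was the library farther from the other two, on the low side in 317. Replicate 1 stood apart in 80 and replicate 3 in 98. Without replicate 2 the count fell to 114, without replicate 1 it was 363 and without replicate 3 it was 338.

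**Figure D4:**
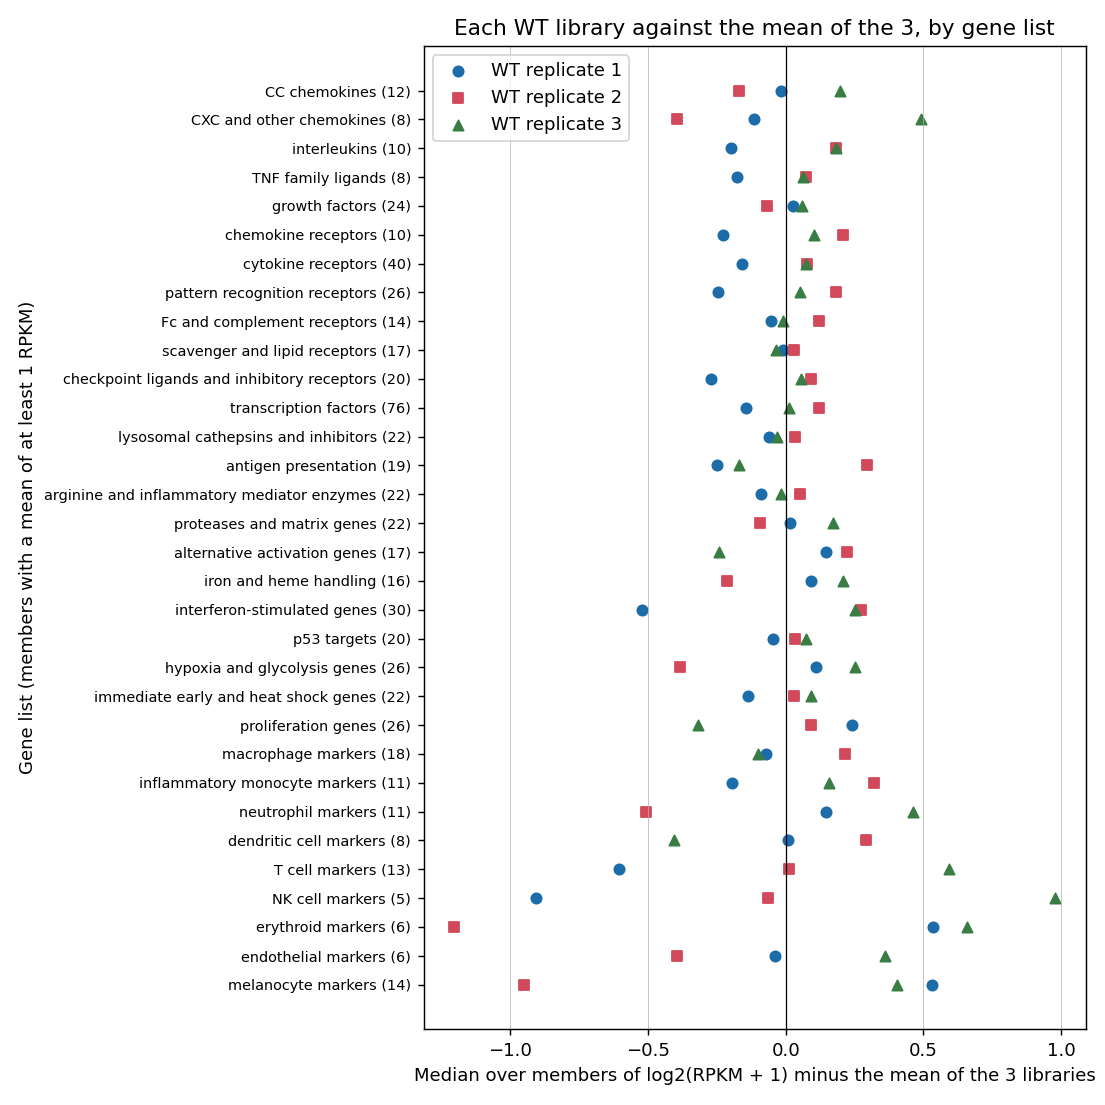
Median over list members of log2(RPKM + 1) minus the mean of the 3 libraries, for each gene list with at least 5 members at 1 RPKM or more. Replicate 2 (red squares) lies farthest to the left for erythroid (-1.20) and melanocyte markers (-0.95), and replicate 1 (blue circles) for NK cell (-0.91) and T cell markers (-0.60) and interferon-stimulated genes (-0.52).

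Replicate 2 differed by more than melanocyte RNA. It was lowest for 24 of 26 hypoxia and glycolysis genes, against 38.3% of genes at 1 RPKM or more, with a median deviation of -0.38 on the log2 scale, and Pfkp and Vegfa were the exceptions. Car9, a carbonic anhydrase induced by hypoxia, was at 48.2, 14.9 and 50.5 RPKM, and Slc2a1, the glucose transporter GLUT1, at 279.8, 161 and 342 RPKM. Replicates 1 and 3 were close for Car9 and farther apart for Slc2a1. The core of the hypoxia response element, ACGTG, stood in 17 of 24 promoter windows of the list (70.8%), on either strand, against 21.8% of 27025 genes. All 6 erythroid markers at 1 RPKM or more and 8 of 11 neutrophil markers were lowest in replicate 2 as well, against the same 38.3%. Antigen presentation genes went the other way, with 14 of 19 highest in replicate 2, against 40.2% of genes at 1 RPKM or more, and 0 lowest there. Melanocyte markers and glycolysis genes were both lower in replicate 2, but they differed in the order of replicates 1 and 3. Of 14 melanocyte markers 12 were highest in replicate 1, and of 26 hypoxia and glycolysis genes 20 were highest in replicate 3. The part of melanocyte RNA in these levels was not tested.

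The class II gene H2-Eb1 is shown with its Y box, CTGATTGG, a sequence bound by NF-Y and found in class II promoters. The search covered both strands, and the match, in capitals, begins 62 bases before the start.
H2-Eb1, chr17:34305617-34305866, plus strand: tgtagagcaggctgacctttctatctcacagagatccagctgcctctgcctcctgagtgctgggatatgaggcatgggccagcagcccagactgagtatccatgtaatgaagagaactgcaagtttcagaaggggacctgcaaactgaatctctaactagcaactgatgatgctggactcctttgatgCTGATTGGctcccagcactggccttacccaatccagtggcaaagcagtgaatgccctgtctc
Of 14 antigen presentation genes with a promoter window, 7 held the letters (50%), against 4.70% of 27025 genes. The holders were not only class II genes (H2-Aa, H2-Eb1 and H2-Oa). They also included the class I genes H2-D1 and H2-K1 and the peptide-processing genes Psmb9 and Tap1.

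Replicate 1 was lowest for 29 of 30 interferon-stimulated genes, against 27.1% of genes at 1 RPKM or more, with Xaf1 the exception. Their median deviations were -0.52, 0.28 and 0.25 in replicates 1, 2 and 3 on the log2 scale, and 11 of the 30 were at least 2-fold apart, against 5.40% of genes at 1 RPKM or more. Isg15, a ubiquitin-like protein that interferon induces, was at 49.0, 106 and 126 RPKM, Rsad2, an antiviral enzyme, at 32.9, 73.8 and 87.2 RPKM, and Ifit3, an antiviral protein, at 29.8, 54.2 and 62.5 RPKM. Ifitm3, a membrane protein that blocks viral entry and the highest of the list, was at 667, 883 and 912 RPKM. In each of these 4 genes replicates 2 and 3 lay together above replicate 1. T cell and NK cell markers were lowest in replicate 1 as well, as given above, and so were most pattern recognition and cytokine receptors. The part of T and NK cells in the interferon-stimulated levels was not tested.

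Isg15 and Ifit3 are shown because their windows hold the interferon response element, GAAANNGAA, a core of the sequence bound by ISGF3 and other IRF complexes. Both strands were searched after the levels had been seen, and the capitals mark matches. In Isg15 there are 3 that overlap one another, beginning 78, 72 and 66 bases before the start, and in Ifit3 there are 3, at 155, 121 and 102 bases, which read on the opposite strand.
Isg15, chr4:156200819-156201068, minus strand: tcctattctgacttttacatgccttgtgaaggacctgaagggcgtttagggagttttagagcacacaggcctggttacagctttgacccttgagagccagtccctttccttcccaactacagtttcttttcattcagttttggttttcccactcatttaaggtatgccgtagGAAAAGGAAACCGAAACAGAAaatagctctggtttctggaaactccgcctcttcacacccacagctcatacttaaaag
Ifit3, chr19:34583279-34583528, plus strand: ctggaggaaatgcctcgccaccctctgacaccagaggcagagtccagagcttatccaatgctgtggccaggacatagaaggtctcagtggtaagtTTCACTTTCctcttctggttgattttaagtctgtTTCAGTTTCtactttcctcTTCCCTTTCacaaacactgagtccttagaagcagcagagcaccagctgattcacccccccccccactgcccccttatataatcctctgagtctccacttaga
Of 24 interferon-stimulated genes with a promoter window, 16 held the letters (66.7%), against 9.76% of 27025 genes.

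Replicate 3 was lowest for all 26 proliferation genes, against 34.6% of genes at 1 RPKM or more, with a median deviation of -0.32 on the log2 scale. Top2a, a topoisomerase of dividing cells, was at 18.2, 22.3 and 10.1 RPKM, and Mki67, the gene of the Ki-67 antigen, at 11.0, 12.5 and 4.86 RPKM. These 2 of the 26 were at least 2-fold apart, against 5.40% of genes at 1 RPKM or more. Of 17 alternative activation genes at 1 RPKM or more, 10 were lowest in replicate 3 and 10 highest in replicate 2. Over all genes at 1 RPKM or more the shares were 34.6% and 40.2%. In the same list 4 were lowest in replicate 2 and 4 highest in replicate 3, and Arg1, its highest member, was both.

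**Figure D5:**
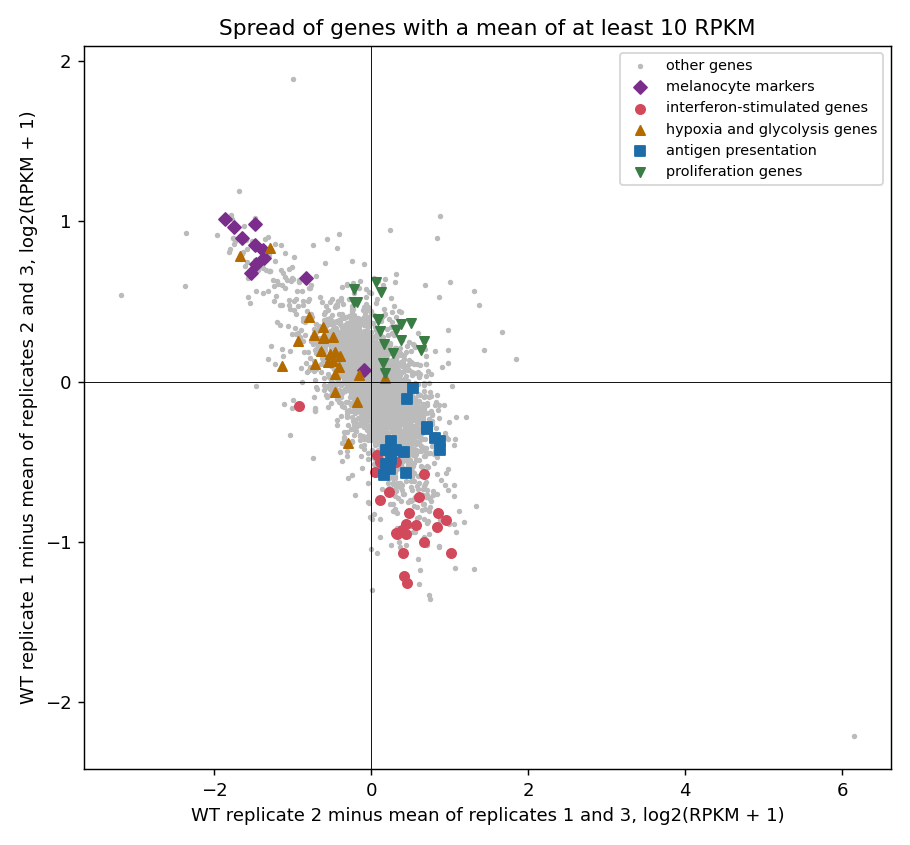
Deviation of WT replicate 2 (horizontal) and of WT replicate 1 (vertical) from the mean of the other two libraries, in log2(RPKM + 1), for genes whose mean reached 10 RPKM. Melanocyte markers (purple) and hypoxia and glycolysis genes (orange) lie mostly to the left, antigen presentation genes (blue) mostly to the right, and interferon-stimulated genes (red) below 0.

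The gene with the largest range among those at 10 RPKM or more was Nov, a secreted matrix protein of the CCN family, at 1.85, 134.95 and 0.29 RPKM, so its level rested on replicate 2 alone. Ppbp, Cxcl3, Asgr2 (a lectin, 19.9, 44.9 and 6.82 RPKM), S100a8 (13.7, 2.21 and 17.4 RPKM), Retnla (a marker of alternative activation, 15.5, 29.8 and 4.74 RPKM), Fcrls (58.9, 89.3 and 19.4 RPKM), Ear2 (146, 206 and 46.4 RPKM), Slc27a3 (17.7, 32.1 and 7.05 RPKM) and Hba-a2 (60.2, 15.2 and 64.2 RPKM) completed the 10 largest. They fell into 2 orders of the libraries, either lowest in replicate 2 and highest in replicate 3 or highest in replicate 2 and lowest in replicate 3. Among genes at 100 RPKM or more, the narrowest ranges were those of Bcl2a1b, a survival gene of the BCL2 family, at 189.2, 189.7 and 189.6 RPKM, and of Ctsz (cathepsin Z), at 955, 961 and 953 RPKM. Bcl2a1b has near-identical copies, so its reads may be shared with them.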

How the data were processed

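The deposited files hold 1 RPKM value per gene symbol, per the file headers, written to 2 decimals. CASAVA 1.7, TopHat 1.3.1, Bowtie 0.12.7 and Partek (no version) and the build mm9 are named in the submitters' processing notes. The annotation, the read total behind the RPKM and how multi-mapped reads were handled: not given in the sources used here. Calendar dates stand in place of 25 symbols, which kept those names.

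RPKM were used as deposited. Means, SDs, ranks, gene lists and, for genes whose mean reached 1 RPKM, log2(RPKM + 1) deviations were computed over the 3 WT libraries with pandas 2.3.3 and numpy 2.4.6 under Python 3.11.15. Figures were made in matplotlib 3.10.9. Only the spread calls and the depth scan were checked on simulated data, which held less noise than the real libraries. Depth was scanned from 10 to 60 M reads. At the depth found, 92.8% to 94.2% of 57 to 83 short-gene values were within 0.15 of a whole read. The median of this share over all depths scanned was 14.5% to 19.3%. Depths served for description only.

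The genes named were drawn from the 30 highest by mean, the 8 highest of each list of ligands, receptors and transcription factors and the 4 highest of the other lists, the 10 largest ranges at 10 RPKM or more and examples of the 10 smallest at 100 RPKM or more, Stat3, Tlr9 and the 5 markers. Other list members, and the motifs, were chosen after their values were seen. Both strands were searched for 5 motifs. The kappaB and interferon motifs were first searched in longer forms with 1 more base, which fewer promoters held. The libraries, the 40 lists and the rules were chosen with earlier results of these data known. The other 8 libraries were not used. Ly6g and Cgas were not analysed here, and a few list members are not reported here. Alternatives tried were other pseudocounts, filters, thresholds and scalings, and leaving out each library.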

Additional observations from a re-analysis of the deposited data

How the results depend on the processing

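No paired analysis was possible because the results describe 1 group and come from no test. Rescaling each library to a common sum (as TPM has) raised the genes at 100 RPKM or more from 663 to 1749, those at 1000 or more from 37 to 137 and those 2-fold apart from 559 to 954. The count 2-fold apart was 961 with a pseudocount of 0.1 and 331 with a filter at 5 RPKM, and ranged from 114 to 363 with 1 library left out, the lowest without WT replicate 2. The median coefficient of variation was 19.7% with no filter and 7.43% to 12.2% with 1 library left out. The other 106 alternatives of the main counts, shares and sums kept their value within 1.5 times or 1 SD. Of 1150 alternatives for 230 named genes, 2 moved by more than 1 SD, Bcl2a1b (188.6 RPKM) and Ctsz (951.9 RPKM) under median-ratio scaling, both with very small SDs. Of 200 alternatives for the members of lists at 1 RPKM or more, 6 moved. With a threshold of 0.5 RPKM the interferons went from 0 to 1, the eosinophil, basophil and mast cell markers from 3 to 6, the fibroblast markers from 3 to 5 and the muscle markers from 1 to 2. The muscle markers were also 2 without WT replicate 2, and the T cell markers went from 13 to 8 without WT replicate 3.

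With 3 libraries, none was tested as standing apart. Library order within a list is a description, since members share the library. RPKM keep no counting error of single genes, and levels below 1 RPKM rest on few reads in short genes. RNA of pigment, T and NK cells differed between the libraries, and its share in other levels was not measured.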
